A study of Rattus norvegicus with 11 samples.

Results

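Immediate early and activity-induced genes are here a list of 36 genes linked to responses to calcium entry, cAMP or growth factor signals. Not all of them respond within minutes, and some, such as Jund, are largely constitutive. The genes were chosen by name, and 35 of the 36 had a row among the 22076 rows with values. Of those 35, 25 reached a mean of 1 FPKM (fragments per kilobase, scaled to library size) over 11 libraries. For the exception without a row, Ier2, expression is not analysed here, and it enters the promoter search only. The libraries came from cultures of wild type Sprague-Dawley rat dorsal root ganglion (DRG) neurons, purified by immunopanning from ganglia of embryonic day 15 embryos, and RNA was taken on day 14 in vitro. The 3 groups were 3 cultures labelled as having had no treatment, 4 treated overnight from day 13 with Schwann cell conditioned medium (SCCM) and 4 treated overnight with 1 µM prostaglandin E2 (PGE2). All were of 1 strain, and each biological replicate pooled 10 to 18 embryos of 1 pregnant rat, and the tests measure the spread between these pools. The labels name no control medium or vehicle for the untreated cultures.

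Depolarisation opens calcium channels and activates calmodulin-dependent kinases, growth factors activate the ERK kinases, and receptors coupled to Gs, among them the PGE2 receptors EP2 and EP4, raise cAMP and activate protein kinase A. These kinases act on factors already present in the cell, chiefly CREB at cAMP response elements and the serum response factor with its ETS partners at CArG boxes, so that early genes are transcribed without new protein synthesis. Most early transcripts are short-lived and return towards their starting level within hours, while their protein products, many of them transcription factors, act on later genes. In sensory neurons Fos, Jun and Egr family transcripts are widely used as signs of recent stimulation, and Jun is also known as a gene induced by axon injury.

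The cultures were neuronal by their markers. All 10 sensory neuron markers had a row, and their summed level was between 5601 and 9132 FPKM in untreated, 6456 and 9786 FPKM in SCCM and 8258 and 9417 FPKM in PGE2 libraries. Of 13 Schwann and satellite glia markers with a row, 8 stayed under 1 FPKM in every library and Gfap was at 0 in all, with sums of 4.44 to 12.48 FPKM in untreated, 5.11 to 11.8 FPKM in SCCM and 2.31 to 8.24 FPKM in PGE2 libraries. The other 5 reached 1 FPKM in some library, among them S100b at 0.19 to 9.23 FPKM and Apoe at up to 9.2 FPKM in untreated libraries. All 10 macrophage and immune markers stayed under 1 FPKM, with C1qb, Cd3e and Ptprc at 0, as did 8 of 9 fibroblast and 8 of 9 endothelial and mural markers. The exceptions were Pdgfra, at 1.24 to 3.74 FPKM, and Acta2, at 0.07 to 1.69 FPKM. Read totals are not given. Steps in the FPKM of rarely seen genes put the deepest library at 1.31 times the shallowest. Sik3, a member with a narrow range, lay between 4.03 and 7.01 FPKM in all 11, though all its SCCM values lay above all untreated ones.

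Promoter sequences are shown for the 6 members with the widest range of expression over the libraries whose promoter window held a cAMP response element or its short core, since CREB binding to that element is the textbook route from PGE2 receptors to early genes. The letters searched on both strands were TGACGTCA for the full element and TGACG for the core, which lies inside the full element. Each sequence is the 250 bases before the RefSeq start (build GRCr8), written 5′ to 3′ on the gene's strand, and capitals mark the elements and, in Egr1, a pair of CArG boxes. The windows are chr18:26736828-26737077 (plus strand) for Egr1, chr19:40080876-40081125 (plus strand) for Junb, chr4:119607818-119608067 (minus strand) for Egr4, chr10:17184603-17184852 (plus strand) for Dusp1, chr16:18769772-18770021 (minus strand) for Jund and chr1:212183635-212183884 (plus strand) for Fosl1.
Egr1: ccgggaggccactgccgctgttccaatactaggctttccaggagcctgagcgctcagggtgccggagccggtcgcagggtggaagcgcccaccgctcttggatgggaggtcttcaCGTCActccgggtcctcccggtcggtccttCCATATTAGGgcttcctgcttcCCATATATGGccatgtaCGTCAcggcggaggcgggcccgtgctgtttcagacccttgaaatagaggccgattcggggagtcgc
Junb: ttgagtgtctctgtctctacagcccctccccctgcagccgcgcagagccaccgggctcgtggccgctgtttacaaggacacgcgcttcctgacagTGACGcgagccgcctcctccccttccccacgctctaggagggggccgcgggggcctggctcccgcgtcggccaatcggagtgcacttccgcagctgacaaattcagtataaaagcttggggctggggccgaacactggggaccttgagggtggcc
Egr4: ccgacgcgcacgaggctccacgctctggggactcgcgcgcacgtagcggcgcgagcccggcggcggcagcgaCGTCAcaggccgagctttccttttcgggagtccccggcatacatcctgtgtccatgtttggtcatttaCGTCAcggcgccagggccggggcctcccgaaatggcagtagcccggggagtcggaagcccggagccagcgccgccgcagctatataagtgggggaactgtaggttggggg
Dusp1: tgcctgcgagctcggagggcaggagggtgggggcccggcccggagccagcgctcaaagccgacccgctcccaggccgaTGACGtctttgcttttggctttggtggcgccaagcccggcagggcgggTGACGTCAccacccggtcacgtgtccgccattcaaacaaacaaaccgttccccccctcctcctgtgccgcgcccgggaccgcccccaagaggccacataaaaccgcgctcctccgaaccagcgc
Jund: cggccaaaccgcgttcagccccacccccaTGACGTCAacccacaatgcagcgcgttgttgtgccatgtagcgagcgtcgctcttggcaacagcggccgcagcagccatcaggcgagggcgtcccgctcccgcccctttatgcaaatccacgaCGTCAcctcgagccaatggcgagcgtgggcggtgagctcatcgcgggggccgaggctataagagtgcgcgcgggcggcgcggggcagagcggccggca
Fosl1: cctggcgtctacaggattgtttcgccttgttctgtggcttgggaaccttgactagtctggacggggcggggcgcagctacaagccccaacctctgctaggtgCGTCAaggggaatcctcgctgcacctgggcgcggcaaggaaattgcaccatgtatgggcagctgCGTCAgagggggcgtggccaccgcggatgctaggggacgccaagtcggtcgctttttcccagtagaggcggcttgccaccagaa

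A RefSeq window was found for 28 of the 36 listed genes, with 30 starts among them. Fos and Jun were among the genes without a window, so their promoters were not searched for any element. The full element lay in 7 of the 30 windows, against 1.59% of all 33469 rat windows, and belonged to Areg, Crem, Dusp1, Ier2, Jund and Ppargc1a. In Dusp1 it began 124 bases before the start, and in Crem it lay in 2 of 3 windows, 56 and 35 bases before the start. The core TGACG, full elements included, lay in 20 of 30 windows against 18.2% of all. CArG boxes were found in Egr1, at 105 and 83 bases before the start, and in Egr2, against 1.5% of all windows. The AP-1 site TGACTCA, bound by Fos and Jun dimers, was in none of the 30 windows and in 4.05% of all. These matches are descriptions of the letters near annotated starts, and elements farther away were not searched.

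Most of the variation in early gene expression lay between cultures of the same treatment. The range over the 11 libraries, on the log2(FPKM + 1) scale, had a median of 2.42 over the 25 tested members and 1.17 over all 12107 tested genes, and 8.06% of tested genes had a range at least as wide as the members' median. Group membership accounted for a median of 19.8% of the sum of squares of the members, and for 25% over all tested genes. PGE2 replicate 2 was among the 4 highest libraries for 19 of 25 members, untreated replicate 2 and SCCM replicate 1 for 17 each and untreated replicate 3 for 15. PGE2 replicates 4 and 3 and SCCM replicate 2 were among the 4 lowest for 19, 18 and 17 members. Each group thus held a library high for most members, while the libraries low for most members were all treated ones. The untreated replicates 1 to 3 were among the 4 lowest for 7, 3 and 5 members. The first principal component of all 12107 tested genes, their main axis of variation, held 56% of the variance. On it untreated replicates 2 and 3, SCCM replicate 1 and PGE2 replicate 2 stood at -38.9, -60.8, -27.9 and -37.6. SCCM replicates 2 and 3 and PGE2 replicates 3 and 4 stood at 42.4, 45.5, 40 and 55.8. A similar library order thus ran through the tested genes at large, and its part in the member values was not tested.

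**Figure D1:**
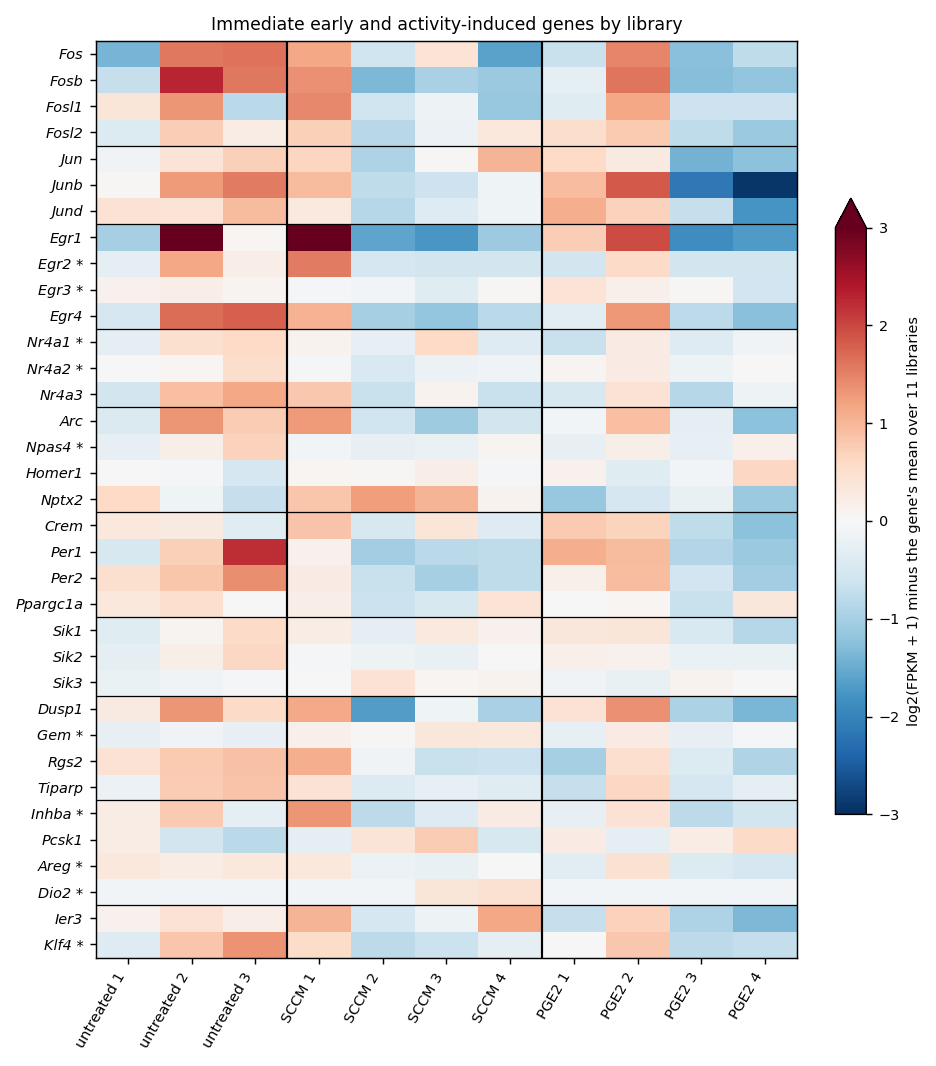
Level of each of the 35 genes with a row in each library, as log2(FPKM + 1) minus the gene's mean over the 11 libraries (colour). Rows are grouped by family, columns by treatment, and an asterisk marks the 10 genes with a mean under 1 FPKM. Untreated 2 and 3, SCCM 1 and PGE2 2 are red for most early transcription factors, and PGE2 3 and 4 and SCCM 2 are blue.

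Fos and Jun family proteins pair to form AP-1, with Fos and Fosb as the short-lived inducible partners and Jund as the most constitutive. Fos measured 1.74, 20.79 and 21.54 FPKM in untreated replicates 1 to 3, 15.33, 3.79, 8.66 and 1.38 FPKM in SCCM replicates 1 to 4, and 3.58, 19.15, 2.06 and 3.26 FPKM in PGE2 replicates 1 to 4. The range within the untreated group alone was 12.4-fold, and each group held values both under 4 and above 15 FPKM. Fosb followed the same libraries, at 0.70, 12.45 and 7.26 FPKM untreated, 6.16, 0.08, 0.40 and 0.26 FPKM in SCCM and 1.29, 7.41, 0.13 and 0.20 FPKM in PGE2 libraries. One library of each treated group stood near the higher untreated pair and the others lay near or below untreated replicate 1. Fosl1 and Fosl2, which encode Fos-related antigens that persist longer, spanned 3.43 to 25.17 FPKM and 11.91 to 47.06 FPKM.

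Jund was the most abundant member at a mean of 188.9 FPKM, followed by Jun at 87.9 FPKM, Dusp1 at 35.7 FPKM and Fosl2 at 29.9 FPKM. Jund measured 220.09, 219.01 and 315.11 FPKM untreated, 199.05, 90.39, 124.54 and 148.77 FPKM in SCCM and 350.21, 262.72, 100.84 and 47.06 FPKM in PGE2 libraries, so that all SCCM values lay below all untreated values while PGE2 values lay on both sides. Jun measured 71.68, 102.14 and 126.63 FPKM untreated, 121.53, 40.13, 78.84 and 156.18 FPKM in SCCM and 116.99, 92.34, 28.39 and 32.03 FPKM in PGE2 libraries. Its highest value was in SCCM replicate 4, where Fos had its lowest. Junb, a partner that dampens AP-1 activity of Jun, had the widest range of the Jun family, with 17.46, 42.53 and 51.73 FPKM untreated, 33.58, 9.56, 10.63 and 15.40 FPKM in SCCM and 33.28, 62.84, 3.04 and 1.38 FPKM in PGE2 libraries. The 4 PGE2 values thus took in the highest and the lowest of all 11, and the core element of its promoter is among those printed above.

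The Egr genes encode zinc finger factors induced through CArG boxes and CREB, and Egr1 had the widest range of any member. Egr1 measured 0.84, 29.63 and 2.83 FPKM untreated, 30.98, 0.23, 0.10 and 0.72 FPKM in SCCM and 5.11, 13.32, 0 and 0.13 FPKM in PGE2 libraries. A single high library in SCCM and a single high one among untreated cultures set both group means. Egr4 measured 0.89, 7.58 and 8.16 FPKM untreated, 4.5, 0.34, 0.20 and 0.51 FPKM in SCCM and 1.15, 5.55, 0.55 and 0.11 FPKM in PGE2 libraries. It was high in the same treated libraries as Egr1, but among untreated libraries in replicate 3 as well as replicate 2. Egr2, better known from myelinating glia, reached 3.26 FPKM in SCCM replicate 1 and 2.27 FPKM in untreated replicate 2 and was listed at 0 in 5 libraries. Egr3 stayed between 0.07 and 1.14 FPKM. Fewer cells expressing a gene and less RNA per cell cannot be told apart in such bulk libraries.

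The orphan nuclear receptors Nr4a1, Nr4a2 and Nr4a3, which are classical CREB targets, were low. Nr4a3, the single one tested, measured 0.27, 2.45 and 3.13 FPKM untreated, 2.26, 0.17, 0.99 and 0.17 FPKM in SCCM and 0.34, 1.52, 0.02 and 0.67 FPKM in PGE2 libraries. Nr4a1 lay between 0 and 1.41 FPKM and Nr4a2 between 0.32 and 1.58 FPKM. The neuron-specific activity genes Arc, whose product moves glutamate receptors from synapses, and Npas4, a calcium-induced factor, reached 5.67 FPKM and 0.91 FPKM at most, with Npas4 listed at 0 in 4 libraries. Arc was highest in untreated replicate 2 and SCCM replicate 1, at 5.67 and 5.54 FPKM.

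Products that feed back on the same signals form a further group. Dusp1, a phosphatase that switches off MAP kinases, measured 33.92, 70.90 and 41.89 FPKM untreated, 62.30, 8.11, 25.55 and 13.63 FPKM in SCCM and 37.77, 74.13, 14.09 and 10.24 FPKM in PGE2 libraries. Crem, whose short product ICER represses CREB targets, measured 6.05, 5.86 and 3.40 FPKM untreated, 9.26, 3.08, 6.27 and 3.35 FPKM in SCCM and 8.85, 8.00, 2.38 and 1.41 FPKM in PGE2 libraries. Gene-level FPKM do not separate ICER from longer Crem transcripts. The salt-inducible kinases hold back CREB coactivators, and of these Sik1, the inducible one, ranged from 3.00 to 9.83 FPKM and Sik2 from 1.97 to 4.52 FPKM. Sik3 measured 4.19, 4.46 and 4.66 FPKM untreated, 4.97, 7.01, 5.11 and 5.39 FPKM in SCCM and 4.45, 4.03, 5.32 and 4.93 FPKM in PGE2 libraries, and all its SCCM values lay above all untreated ones. Ppargc1a, a coactivator for mitochondrial genes, ranged from 1.44 to 4.49 FPKM.

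Per1 and Per2, repressors of the circadian clock that are also induced by cAMP, both had lower means in the treated groups than in untreated cultures. Per2 measured 8.86, 11.61 and 17.45 FPKM untreated, 7.39, 3.43, 2.56 and 3.20 FPKM in SCCM and 6.88, 12.51, 3.73 and 2.41 FPKM in PGE2 libraries. Every SCCM value lay below every untreated value, whereas PGE2 replicate 2 lay within the untreated range. Per1 measured 12.80, 30.90 and 88.89 FPKM untreated, 20.06, 8.40, 10.16 and 10.49 FPKM in SCCM and 40.39, 36.55, 9.47 and 7.98 FPKM in PGE2 libraries. Its highest value of all, 88.89 FPKM, was in untreated replicate 3, and 2 PGE2 libraries lay within the untreated range.

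Rgs2, which limits signalling by Gq, measured 10.91, 14.17 and 15.18 FPKM untreated, 17.54, 7.09, 4.56 and 4.64 FPKM in SCCM and 3.38, 11.52, 5.64 and 3.68 FPKM in PGE2 libraries. Of the treated libraries, SCCM replicate 1 and PGE2 replicate 2 reached the untreated range and the other 6 lay below it. Tiparp, an ADP-ribosyltransferase that limits aryl hydrocarbon receptor signalling, was high and low in the same treated libraries, at 6.95, 14.06 and 15.16 FPKM untreated, 10.96, 5.74, 6.57 and 5.96 FPKM in SCCM and 4.56, 12.67, 5.33 and 6.23 FPKM in PGE2 libraries. Ier3, an early gene linked to cell survival, was close in the untreated libraries, at 3.67, 4.70 and 3.87 FPKM, and spread out in SCCM, at 7.56, 2, 2.81 and 8.48 FPKM, and in PGE2, at 1.62, 5.89, 1.24 and 0.66 FPKM. Gem, a small GTPase that restrains calcium channels, stayed at or under 0.50 FPKM, and the factor Klf4 lay between 0 and 3.43 FPKM.

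Other members act outside the nucleus at synapses or in secretion. Nptx2, a secreted pentraxin that gathers AMPA receptors at synapses, measured 34.05, 20.30 and 13.30 FPKM untreated, 40.00, 54.64, 45.75 and 23.92 FPKM in SCCM and 9.60, 15.35, 18.86 and 9.80 FPKM in PGE2 libraries. All SCCM values lay above all PGE2 values. The library with least Fos had most Nptx2 among untreated and among PGE2 libraries, but least Nptx2 among SCCM libraries. Pcsk1, a convertase that cuts prohormones in dense-core vesicles, measured 14.79, 8.15 and 6.76 FPKM untreated, 9.92, 16.57, 21.98 and 8.67 FPKM in SCCM and 14.88, 10.15, 14.71 and 19.15 FPKM in PGE2 libraries. Homer1, a postsynaptic scaffold whose short form is activity-induced and is not separated here, ranged from 2.52 to 6.65 FPKM, highest in PGE2 replicate 4. The secreted factors Inhba, an activin subunit, and Areg, a ligand of the EGF receptor, reached at most 3.38 and 1.05 FPKM, and Dio2, which activates thyroid hormone, was above 0 only in SCCM replicates 3 and 4, at 0.37 and 0.47 FPKM.

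**Figure D2:**
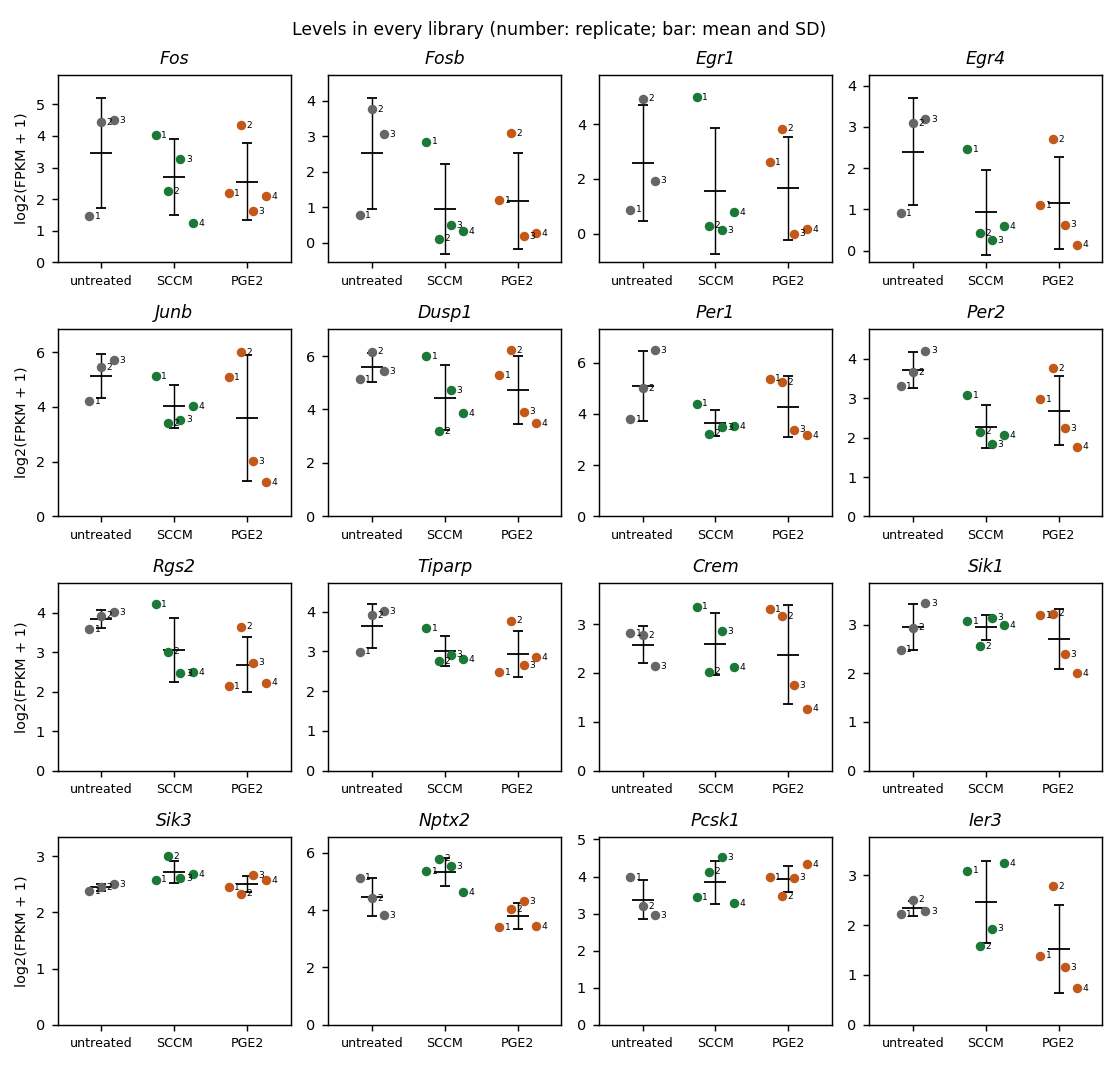
Level of 16 members in every library as log2(FPKM + 1), with numbers giving the replicate and bars the mean and SD of each group (n = 3 untreated, 4 SCCM, 4 PGE2). The SCCM and PGE2 points of Nptx2 do not overlap, nor do the SCCM and untreated points of Per2, while Fos, Fosb, Egr1 and Egr4 have a high replicate in every group.

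The first comparison set the SCCM cultures against the untreated ones. Mean log2(FPKM + 1) was lower in SCCM for 19 of 25 members and higher for 6, and their median difference was -0.61, against -0.13 over all 12107 tested genes, of which 61.3% were lower and 38.7% higher. With median-ratio scaling, which brings the median of all genes to -0.002, 50.1% of all genes and 17 of 25 members were lower. All 4 Fos, all 3 Jun and both tested Egr family members had lower means, except that Jun stood at 0.007 with that scaling and 0.020 with quantile normalization and that Fosl1, Fosl2, Jun and Egr1 turned sign without 1 or another library. Fosb was at -1.58 (SE 0.90), Egr4 at -1.47 (SE 0.74), Junb at -1.10 (SE 1.00) and Fos at -0.76 (SE 0.88). Per2 differed by -1.44 (SE 0.45, 95% interval -2.43 to -0.46, limma adjusted p = 0.357), Per1 by -1.43 (SE 0.68), Rgs2 by -0.79 (SE 0.45), Tiparp by -0.63 (SE 0.35) and Nptx2 by 0.88 (SE 0.36, 95% interval 0.09 to 1.66). No member passed limma over all genes, and neither did any other gene (0 called, 0%). Per2 and Nptx2 were at an unadjusted p under 0.05, which is 8% of the members against 13.6% of all tested genes. Per2, Jund and Sik3 did not overlap between the groups, 12% of the members against 10.6% of all tested genes.

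The direction for Egr1, at -1.03 (95% interval -4.01 to 1.95), rested on untreated replicate 2, without which it was 0.15. The count of members at an unadjusted p under 0.05 was 2 with all libraries, beside 1648 of all tested genes. It was 9 of 26 when untreated replicate 1 was left out, beside 2669 of 12106 genes. For SCCM replicate 1 it was 8 of 24, beside 3048 of 12073 genes. Without untreated replicate 2, untreated replicate 3, SCCM replicate 2 or SCCM replicate 3 it was 1, beside 957, 398, 703 and 631 genes.

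For PGE2, which can signal through cAMP, the untreated cultures were again the reference. Mean levels were lower for 22 of 25 members, with a median difference of -0.76 against -0.16 over all tested genes, of which 67.1% were lower and 32.9% higher. With median-ratio scaling 50.4% of all genes and 22 of 25 members were lower. The 4 Fos, 3 Jun and 2 tested Egr family members, Nr4a3 and Arc had lower means, except that Fosl1 and Egr1 turned sign without untreated replicate 2. Differences and 95% intervals were -0.91 (-2.84 to 1.03) for Fos, -0.76 (-1.83 to 0.30) for Nr4a3, -0.80 (-2.28 to 0.68) for Per1 and -0.25 (-0.97 to 0.47) for Sik1. Crem was at -0.20 (-1.31 to 0.90), and turned sign with quantile normalization, with a replicate block and without PGE2 replicate 3 or 4. Pcsk1, Homer1 and Sik3 were the 3 members with higher means. Rgs2 had the lowest p of the members, at -1.15 (SE 0.45, 95% interval -2.13 to -0.18, limma adjusted p = 0.538), followed by Per2 at -1.04 (SE 0.45), Tiparp at -0.70 (SE 0.35), Nptx2 at -0.67 (SE 0.36), Egr4 at -1.26 (SE 0.74) and Pcsk1 at 0.57 (SE 0.34).

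Limma called no member and no other gene for PGE2 (0 called, 0%). Rgs2 and Per2 were at an unadjusted p under 0.05, 8% of members against 5.72% of all tested genes, and 0 of 25 members did not overlap between the groups, against 5.33% of all tested genes. The first of these counts stood beside 692 of all tested genes. It was 9 of 26 when untreated replicate 1 was dropped (1797 of 12106 genes) and 7 of 25 when PGE2 replicate 2 was (2300 of 12086 genes). It was 1 without untreated replicate 3, SCCM replicate 2 or SCCM replicate 4 (186, 570 and 561 genes). It was 0 without untreated replicate 2, without PGE2 replicate 4 or with a replicate block (348, 253 and 229 genes). Egr1, at -0.93, was at 0.25 without untreated replicate 2. Both comparisons share the 3 untreated libraries.

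The direct comparison of SCCM with PGE2 does not use the untreated cultures in its means. Nptx2 averaged 41.1 FPKM over the 4 SCCM cultures with an SD of 12.9, and 13.4 FPKM with an SD of 4.51 over the 4 given PGE2, a difference of 1.54 on the log2 scale (SE 0.33, 95% interval 0.82 to 2.26). Its unadjusted limma p was 0.000639, the sixth lowest of 12107 genes, but the adjusted p was 1. The value ranged from 1.39 to 1.77 over the 22 alternatives and had the same sign in each. Of the 10 sensory neuron markers, 6 had higher and 4 lower means in SCCM than in PGE2 (median 0.075). The 4 with the lowest p were Pou4f1 at 1.02 (SE 0.38), Isl1 at 0.76 (SE 0.30), Stmn2 at -0.27 (SE 0.20) and Snap25 at -0.42 (SE 0.32), and their part in the Nptx2 value was not tested. Ier3 differed by 0.95 (SE 0.46), Jun by 0.64 (SE 0.51), Per1 by -0.63 (SE 0.63), Per2 by -0.41 (SE 0.42) and Sik3 by 0.22 (SE 0.16), none of which passed the adjustment.

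Of the 25 members, 12 had higher and 13 lower means in SCCM than in PGE2 (median -0.010, against 0.020 over all tested genes, of which 53.4% were higher and 46.6% lower). The interval for Egr1 ran from -2.86 to 2.65 and that for Fos from -1.65 to 1.94, so differences of several-fold between the treatments were not detectable for these genes. Limma called no member and 1 other gene (0.00826% of those tested). Nptx2 alone was at an unadjusted p under 0.05, 4% of members against 3.28% of all tested genes, and alone had no overlap, 4% against 2.21%. Without SCCM replicate 2, SCCM replicate 3 or PGE2 replicate 2 the count at an unadjusted p was 2. Beside it stood 355, 294 and 537 genes, against 397 with all libraries.

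**Figure D3:**
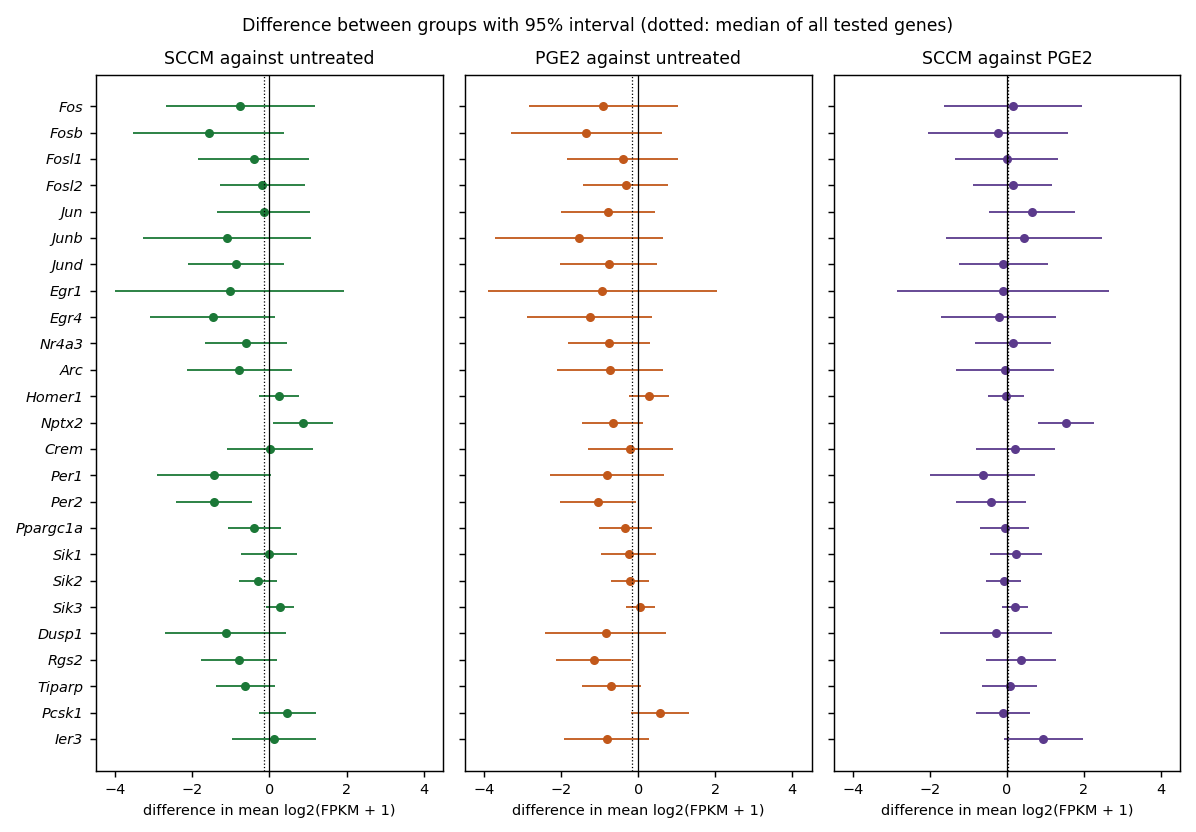
Difference in mean log2(FPKM + 1) between groups for the 25 tested members, with 95% intervals from limma. Dotted lines mark the median of all tested genes (-0.13, -0.16 and 0.020), and the interval of Nptx2 in SCCM against PGE2, 0.82 to 2.26, lies clear of 0.

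Other early and activity-induced genes, a list of related phosphatases, kinases and factors kept apart from the members, had lower means for 29 of 38 tested in SCCM and 32 of 38 in PGE2 than in untreated libraries (medians -0.48 and -0.72). These are 76.3% and 84.2% of the list, against 61.3% and 67.1% of all tested genes. None of the 38 was called. Those with the lowest p in SCCM were Ier5l at 1.01 (SE 0.37), Myc at 0.76 (SE 0.31), Btg2, an antiproliferative early gene, at -1.76 (SE 0.79) and Gadd45b at -2.15 (SE 1.07), and in PGE2 they were Fbxo33 at -0.77 (SE 0.31), the polo-like kinase Plk2 at -0.80 (SE 0.33), Btg2 at -1.63 (SE 0.79) and Ier5l at -0.76 (SE 0.37). Between the treatments, Ier5l was 1.77 higher in SCCM (SE 0.34, unadjusted p = 0.000256, limma adjusted p = 0.776) and Plk2 1.05 higher (SE 0.31, adjusted p = 1). Ier5l and Nptx2 thus had the same order, with the highest mean in SCCM and the lowest in PGE2.

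A list of 30 tested regulators upstream of the early genes held CREB, serum response factor and MEF2 proteins with their kinases and coactivators. In SCCM 11 had higher and 19 lower means than in untreated libraries, 63.3% lower against 61.3% of all tested genes. Those with the lowest p were Prkar2b, a regulatory subunit of protein kinase A, at 1.21 (SE 0.40), Mef2d at -0.61 (SE 0.24), Camkk2 at 0.61 (SE 0.25) and the CREB coactivator Crtc2 at -0.50 (SE 0.25). In PGE2 13 had higher and 17 lower means, 56.7% lower against 67.1% of all tested genes. Those with the lowest p were Atf1 at -0.85 (SE 0.40), Crtc3 at -0.41 (SE 0.21), Mef2d at -0.46 (SE 0.24) and Camk4 at 0.80 (SE 0.425). None of these was called.

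Several other measures also differed between libraries. The mean of 26 hypoxia and glycolysis genes, relative to all libraries, was 0.426, 0.862 and 0.841 in untreated, 0.443, -0.912, -1.036 and 0.390 in SCCM and 0.403, 0.819, -0.954 and -1.283 in PGE2 libraries. The same mean for 17 heat shock and stress response genes was 0.183, 0.575 and 0.672 in untreated, 0.309, -0.925, -0.525 and -0.269 in SCCM and 0.679, 0.715, -0.603 and -0.811 in PGE2 libraries. SCCM replicates 2 and 3 and PGE2 replicates 3 and 4 were below 0 for the members and for both lists, while SCCM replicate 4 and untreated replicate 1 combined member means below 0 with hypoxia means above 0. The same mean for the 10 sensory neuron markers was 0.247, 0.006 and -0.726 in untreated libraries. It was 0.159, 0.243, 0.313 and -0.098 in SCCM and -0.268, 0.007, 0.143 and -0.027 in PGE2 libraries. Mitochondrially encoded genes took 3.20 to 5.54% of FPKM in untreated libraries, SCCM replicates 1 and 3 and PGE2 replicates 1 and 2, and 7.86 to 10.9% in the other 4. Of the 10 sensory neuron markers, 6 had higher and 4 lower means than untreated in each treatment, and none was called. At an unadjusted limma p under 0.05 were 20% in SCCM and 30% in PGE2, against 13.6% and 5.72% of all tested genes. Without overlap were 10% and 30%, against 10.6% and 5.33%. Lowest in p were Avil at 0.86 (SE 0.31) in SCCM and Isl1 at -1.06 (SE 0.33) in PGE2. The part of these measures in the early gene values was not tested.

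**Figure D4:**
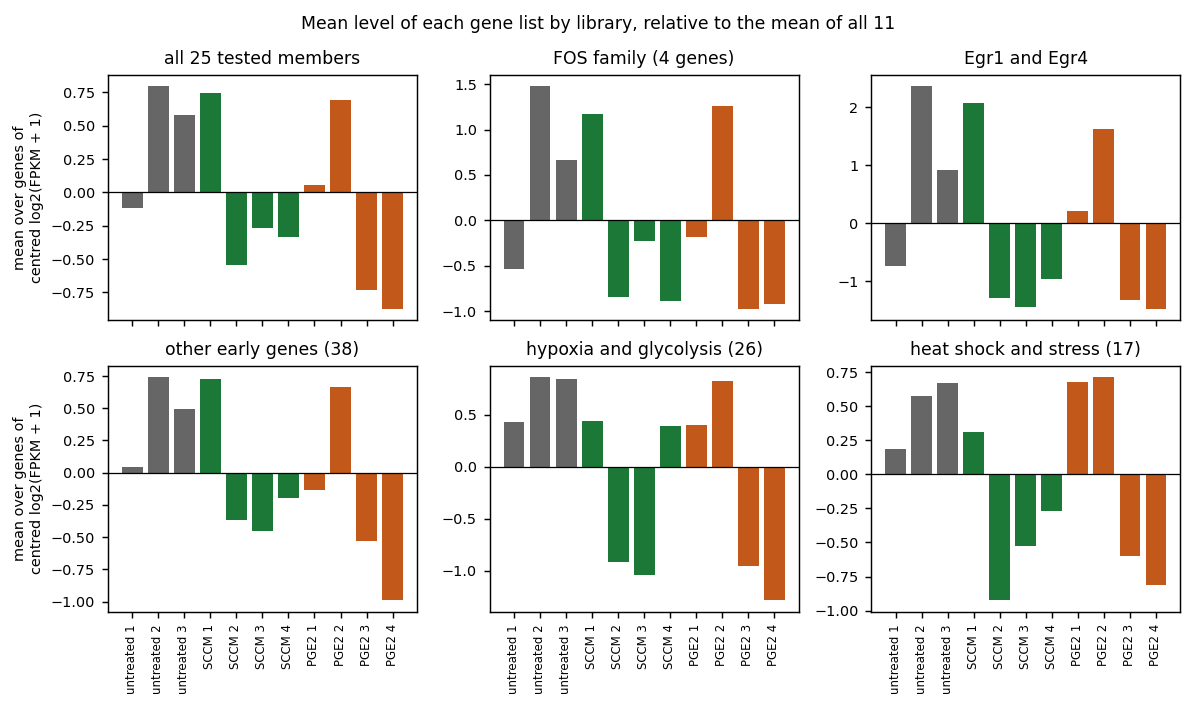
Mean over genes of log2(FPKM + 1), relative to the mean of all 11 libraries, for the tested members, the Fos family, Egr1 and Egr4, other early genes, hypoxia and glycolysis genes and heat shock and stress genes. Grey bars are untreated, green SCCM and orange PGE2 libraries, and PGE2 3 and 4 and SCCM 2 and 3 are below 0 in every panel.

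Genes outside all lists whose log2(FPKM + 1) ran most like that of Fos over the 11 libraries were Zfp954 (Pearson r = 0.963), LOC100364435 (0.944), Polr1d (0.934), Slc25a25 (0.931) and Iscu (0.920). For Junb they were Sys1 (0.974), Ube2g1 (0.970), Cldnd1 (0.970), Kdsr (0.969) and AC135409.1 (0.968). They were the highest of 11958 genes compared, and the libraries are shared by all of them, so the values describe a common pattern only.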

How the data were processed

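Stranded, poly-A enriched libraries came from total RNA with an integrity number above 8, per the labels' protocols. The authors deposited FPKM values in 1 column for each library. The submitters' processing notes name the build Rnor 6.0, while the aligner, counter, annotation and use of strand were not given in the sources used here. A further 207489 lines held no values and were not used. No read totals came with the table, so counting error could not be given.

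The 12107 genes averaging 1 FPKM or more were put on the log2(FPKM + 1) scale, where changes of low genes look smaller than they are. One limma model over the 3 groups (limma 3.58.1, R 4.3.3, eBayes with an intensity trend) gave the 3 comparisons. Tests were two-sided, p-values were adjusted over all genes by the Benjamini-Hochberg method, and calls required an adjusted p below 0.05. The script was tested on simulated data. Members and lists were chosen with earlier results of these data known. Values for every library were given for the 6 members with the lowest p in each comparison and the 6 with the widest range. Values of Jund, Dusp1, Crem and Nr4a3 among others were described besides as family examples chosen after their values were seen. From other lists, up to 4 genes with the lowest p were named. Alternatives changed the pseudocount to 0.1, the filter to none or to 5 FPKM, the scaling to median ratios or quantiles, or the eBayes step (no trend, robust). Others dropped the 13 mitochondrially encoded genes, used only the 2 groups compared, weighted the arrays, added a replicate block or dropped 1 library at a time. Promoters came from the RefSeq table for GRCr8.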

Additional observations from a re-analysis of the deposited data

Results flagged for a closer look

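Within groups of 4, a single library stood apart, by Dixon's test on log2(FPKM + 1), in 6 of 69 groups of member values. Chance flags about 1 in 20 where values are normally distributed, and that rate does not hold for groups at or near 0. A gene above 0 in only 1 library of 4 is always flagged, as was Egr2 in PGE2 libraries. SCCM replicate 1 stood above the other SCCM libraries for Fosb (6.16 against 0.08 to 0.40 FPKM), Egr1 (30.98 against 0.10 to 0.72 FPKM), Egr2 (3.26 against 0 to 0.03 FPKM) and Egr4 (4.5 against 0.20 to 0.51 FPKM). PGE2 replicate 2 stood above the other PGE2 libraries for Fosl1 (20.84 against 5.28 to 6.60 FPKM) and Egr2 (1.15 FPKM against 0 in each of the others). The untreated group, with 3 libraries, was too small for this test. The genes share their libraries, so these are not 6 separate observations.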

How the results depend on the processing

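For 56 member differences, 1157 of 1206 values under 22 alternatives kept direction and side of the threshold, 29 turned sign and 20, all SCCM against untreated with array weights, became called. Array weights gave untreated replicate 2 a weight of 41.1, with 1.89 the next highest, and their estimation did not converge fully. They called 7314 genes for SCCM and 2 for PGE2 against untreated. At an unadjusted p under 0.05 were 20 and 15 of 25 members, beside 7874 and 3730 of 12107 genes. For SCCM against PGE2 there were 3 members, beside 1342 genes. Leaving out single libraries gave 0 to 1 called genes for SCCM against untreated, 0 for PGE2 against untreated and 0 to 1 for SCCM against PGE2, where none was called with a pseudocount of 0.1, with no filter or with a replicate block (0 each), nor without untreated replicate 2, SCCM replicates 2, 3 or 4 or PGE2 replicates 1, 3 or 4. Members at an unadjusted p under 0.05 then numbered 1 to 9, 0 to 9 and 1 to 2. With no filter they numbered 4 of 35 for SCCM against untreated and 2 of 35 for SCCM against PGE2, beside 2191 and 648 of 18831 genes. With only the groups compared they numbered 5 for SCCM and 1 for PGE2 against untreated, beside 2125 and 537 genes. For SCCM against PGE2 they numbered 2 with median-ratio scaling, quantile normalization or removal of mitochondrially encoded genes, beside 427, 424 and 422 genes. With median-ratio scaling the median of all tested genes was -0.002 and -0.003 in the comparisons with untreated libraries, 50.1% and 50.4% of genes were lower and member medians were -0.49 and -0.60 (17 and 22 of 25 lower).

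Signs also turned for single members. For SCCM against untreated these were Jun with median-ratio scaling (0.007) and quantile normalization (0.020), Crem (-0.306) and Ier3 (-0.433) with array weights, and Sik1 with median-ratio scaling (0.124), quantile normalization (0.127), removal of mitochondrially encoded genes (0.096) and a replicate block (0.1). For PGE2 against untreated they were Crem with quantile normalization (0.017) and a replicate block (0.059), and Sik2 with quantile normalization (0.023). Leaving out libraries gave, for SCCM against untreated, ranges of -0.960 to 0.101 for Fosl1, -0.475 to 0.097 for Fosl2, -0.417 to 0.228 for Jun, -2.178 to 0.146 for Egr1, -0.241 to 0.203 for Crem, -0.244 to 0.232 for Sik1 and -0.135 to 0.418 for Ier3. For PGE2 against untreated they gave -0.950 to 0.111 for Fosl1, -1.780 to 0.248 for Egr1, -0.512 to 0.165 for Crem and -0.437 to 0.011 for Sik2. The cause of these changes was not tested.

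Libraries with the same replicate number did not deviate together in every pair. Correlations of their deviations from the group means ran from -0.401 to -0.0205 for SCCM with untreated, from -0.424 to 0.242 for PGE2 with untreated and from -0.506 to 0.493 for SCCM with PGE2. The replicate block left 2, 0 and 1 members at an unadjusted p under 0.05, beside 772, 229 and 365 genes.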
